A study of Homo sapiens with 12 samples.

Results

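The dual-specificity MAPK phosphatases described here were DUSP1, DUSP2, DUSP4, DUSP5, DUSP6, DUSP7, DUSP8, DUSP10, DUSP14 and DUSP16. They were found by gene symbol in the platform's probe annotation, taking every probe set paired with that gene alone, which gave 22 probe sets for the 10 genes, out of 54613 probe sets for 19775 genes in the whole table. The cells were U2OS, derived from a human osteosarcoma and carrying wild-type p53, and transcripts were measured on Affymetrix U133 Plus 2.0 arrays. There were 12 arrays in 4 groups of 3. The groups were cells given 0.6 µg/ml doxorubicin, an anthracycline that traps topoisomerase II and breaks DNA; untreated cells, which were its control; cells given 10 µM nutlin-3, which frees p53 by blocking its binding to MDM2; and cells given 0.1% DMSO, the solvent and the control for nutlin-3. All 4 groups were collected at 24 hours. The labels number the replicates but do not say whether they were separate cultures, so any p-value speaks to the spread among these arrays, which may be technical.

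Mitogen-activated protein kinases are switched on when a kinase above them phosphorylates a threonine and a tyrosine in the activation loop, and a dual-specificity phosphatase switches them off by removing both phosphates. Many of these phosphatase genes are themselves induced by the kinase they restrain, which makes them negative feedback genes, and DUSP1, DUSP2, DUSP4 and DUSP5 have each been described as p53 targets. By place and substrate they fall into nuclear inducible enzymes (DUSP1, DUSP2, DUSP4 and the ERK-specific DUSP5), cytoplasmic ERK phosphatases (DUSP6 and DUSP7), enzymes that prefer JNK and p38 (DUSP8, DUSP10 and DUSP16), and the small atypical DUSP14, which lacks the amino-terminal kinase-binding domain of the others.

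RefSeq promoter windows (GRCh38.p14, 250 bases before to 50 after the transcript start) were found for 8 of the 10 genes, DUSP10 having windows for separate starts; DUSP4 and DUSP5 have no entry. The windows of DUSP1 (chr5:172771146-172771445, minus strand) and DUSP8 (chr11:1572222-1572521, minus strand) are shown because they hold a full cyclic AMP response element, TGACGTCA. The window of DUSP14 (chr17:37489641-37489940, plus strand) is shown because it belongs to the gene that, by brightest probe set and among genes with a window, rose most with both agents. The window of DUSP16 (chr12:12562814-12563113, minus strand) is shown because its gene was the member that fell. Capitals mark TGACGTCA and the E-box CACGTG.
DUSP1: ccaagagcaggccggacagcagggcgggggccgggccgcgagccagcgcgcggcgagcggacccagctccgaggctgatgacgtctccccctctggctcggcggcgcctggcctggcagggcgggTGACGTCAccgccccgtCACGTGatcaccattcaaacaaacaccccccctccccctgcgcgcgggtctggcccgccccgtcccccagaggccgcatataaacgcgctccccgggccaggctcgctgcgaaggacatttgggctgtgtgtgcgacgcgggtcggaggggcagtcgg
DUSP8: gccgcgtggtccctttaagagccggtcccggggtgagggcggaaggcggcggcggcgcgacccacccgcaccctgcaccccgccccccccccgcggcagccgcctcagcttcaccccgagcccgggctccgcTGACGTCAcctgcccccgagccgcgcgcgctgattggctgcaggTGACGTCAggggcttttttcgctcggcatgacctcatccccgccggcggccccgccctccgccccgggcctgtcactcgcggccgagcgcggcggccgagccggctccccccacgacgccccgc
DUSP14: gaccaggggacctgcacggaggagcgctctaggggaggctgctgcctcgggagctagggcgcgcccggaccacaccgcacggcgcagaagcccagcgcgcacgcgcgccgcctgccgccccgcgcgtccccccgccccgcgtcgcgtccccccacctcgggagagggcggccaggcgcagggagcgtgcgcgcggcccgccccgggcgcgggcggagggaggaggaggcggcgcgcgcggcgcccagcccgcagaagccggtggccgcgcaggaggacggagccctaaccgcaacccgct
DUSP16: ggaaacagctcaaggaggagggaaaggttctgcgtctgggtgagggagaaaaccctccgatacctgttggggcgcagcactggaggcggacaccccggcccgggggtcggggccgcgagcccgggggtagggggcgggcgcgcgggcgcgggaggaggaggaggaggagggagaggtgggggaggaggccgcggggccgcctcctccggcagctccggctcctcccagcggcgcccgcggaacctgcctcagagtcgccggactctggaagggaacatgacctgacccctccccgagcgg

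DUSP1 held 1 match to TGACGTCA and DUSP8 held 2, against 1.85% of all 35116 windows in the table with at least 1. The E-box was found in DUSP1 and DUSP2, against 7.26% of all windows, and the TATA box (TATAAA) in DUSP1, 30 bases before the start, against 11.5%. Motifs were searched on both strands, and the matches to these 3 motifs in the DUSP1 window did not overlap each other. The CArG box, the site of serum response factor, was in 0 of the members' 9 windows and in 1.29% of all. A p53 half-site was in the DUSP7 window alone, against 6.63% of all windows, and the full p53 element (a pair of half-sites with a short spacer) was in 0 of the 9 windows and 0.0285% of all. A match is a description of letters, and a p53 site outside these windows would not be seen.

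All 12 arrays had been scaled to the same trimmed mean, and their median signals lay between 79.4 and 113. CDKN1A, a direct p53 target, rose by 2.47 on the log2 scale with doxorubicin and 2.30 with nutlin-3. The ratio of 3' to 5' signal for ACTB, a measure of RNA integrity and of the amplification, averaged 3.12 ± 0.577 in doxorubicin arrays and 1.53 ± 0.0754 in untreated arrays (SD, n = 3 each; exact permutation p = 0.1, the smallest that 3 against 3 can give), while that of GAPDH averaged 1.07 and 1.02. The osteoblast genes RUNX2, COL1A1, SPARC and SPP1 passed the filter on low signals, and SP7, ALPL, COL1A2 and IBSP did not. Summed leukocyte markers, of which 5 of 6 had a probe set, were 592 to 880 in doxorubicin arrays, 224 to 330 in untreated arrays, 358 to 506 in nutlin-3 arrays and 191 to 244 in DMSO arrays, with PTPRC and CD14 under the filter. LAPTM5 made up most of the difference, averaging 509 in doxorubicin, 85.1 in untreated, 258 in nutlin-3 and 60.8 in DMSO arrays, and was called with both agents, while ITGAM (0.01) and CD3E (0.56) were not called with doxorubicin or with nutlin-3 (0.05 and 0.16). Summed epithelial markers were 12599 to 15822 in doxorubicin arrays against 19461 to 20379 in untreated arrays, and 18035 to 19436 in nutlin-3 arrays against 13688 to 14543 in DMSO arrays, most of it KRT18. KRT18 fell with doxorubicin (-0.49) and rose with nutlin-3 (0.48), whereas EPCAM fell with both (-0.31 and -0.68), KRT14 fell with doxorubicin (-1.66) and was not called with nutlin-3 (-0.10), and CDH1 was not called with either. Between DMSO and untreated cells KRT14 (-1.79), EPCAM (-0.68) and KRT18 (-0.47) were called lower and CDH1 (-0.10) was not called. KRT14 averaged 109 in doxorubicin, 372 in untreated, 90.8 in nutlin-3 and 97.2 in DMSO arrays. The part of these markers in the results below was not tested.

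Values below are MAS5 signals, and changes are differences of mean log2(signal + 16), tested with limma and called at a Benjamini-Hochberg adjusted p under 0.05 over the 32768 probe sets whose mean signal was at least 54.6. Of the 22 probe sets of the family, 17 were tested; the 3 of DUSP4, 1 of DUSP6 and 1 of DUSP16 lay under that signal. Doxorubicin raised 9 of the 17 and lowered 0, against 47.4% of all tested probe sets called, 23.7% higher and 23.7% lower. By gene, taking the probe set with the highest mean, DUSP1, DUSP2, DUSP5, DUSP7, DUSP8, DUSP10 and DUSP14 rose, DUSP6 and DUSP16 were not called and DUSP4 was not tested. The median change over all 22 probe sets was 0.66, and over all tested probe sets it was 0.04. Nutlin-3 raised 4 of the 17 (DUSP1, DUSP5, DUSP10 and DUSP14) and lowered 1 (DUSP16), against 17.9% of all tested probe sets called, with 8.40% higher and 9.54% lower. The median over the 22 was 0.31 with nutlin-3, beside -0.01 over all tested probe sets. In RNA from whole cultures, a change in the share of cells that express a gene and a change in RNA per cell cannot be told apart.

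**Figure D1:**
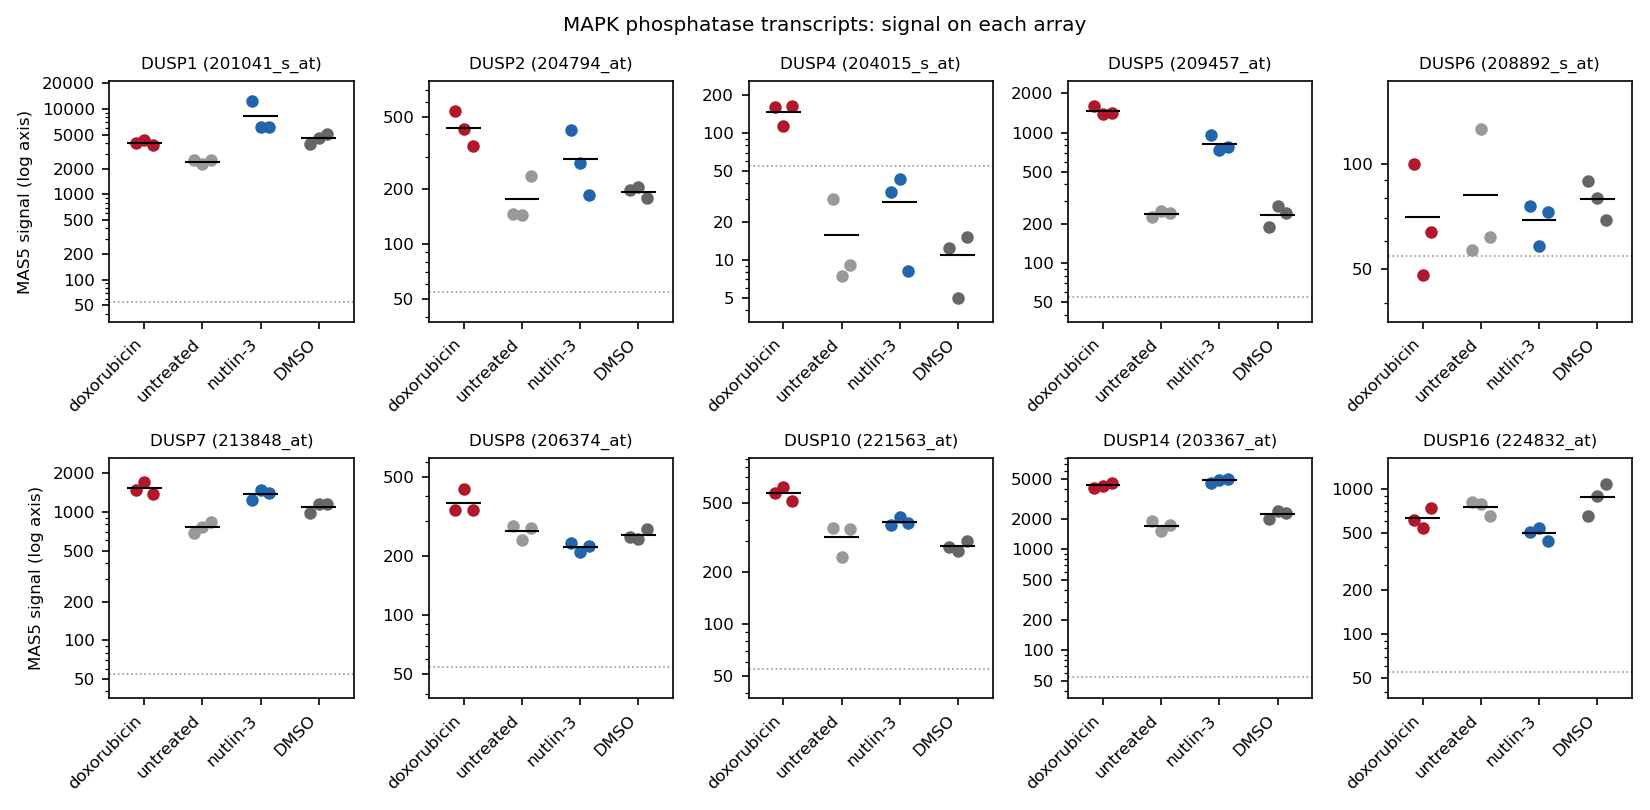
MAS5 signal (log axis) of each gene's probe set with the highest mean on every array; points are the 3 arrays of a group, bars are group means and the dotted line is the filter signal of 54.6. DUSP5 and DUSP14 stand apart from their controls with both agents, DUSP4 is above the line on doxorubicin arrays alone, and DUSP6 overlaps in all groups.

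DUSP5, the nuclear phosphatase that acts on ERK alone and holds it in the nucleus, rose most with either agent among the tested members. Its signal was 1601, 1379 and 1419 in doxorubicin arrays and 224, 252 and 243 in untreated arrays. It was 964, 734 and 775 in nutlin-3 arrays and 189, 272 and 240 in DMSO arrays. Every treated array lay far above every control array, and the control groups overlapped. The change was 2.54 (SE 0.14, 5.80-fold, adjusted p = 5.3e-10) with doxorubicin and 1.76 (SE 0.14, 3.38-fold, adjusted p = 1.9e-07) with nutlin-3. Ordered by mean, DMSO and untreated cells overlapped at the low end, nutlin-3 cells stood apart above them and doxorubicin cells stood apart above those.

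DUSP1, the immediate-early phosphatase of JNK, p38 and ERK, was higher with both agents on its brightest probe set (201041_s_at). Its signal there was 4007, 4273 and 3787 in doxorubicin arrays and 2513, 2265 and 2491 in untreated arrays. It was 12327, 6129 and 6213 in nutlin-3 arrays and 3939, 4568 and 5098 in DMSO arrays. No treated array overlapped its control, but the DMSO arrays were themselves as high as the doxorubicin arrays, and nutlin-3 replicate 1 lay at about double the other nutlin-3 arrays. The change was 0.73 (SE 0.19, adjusted p = 0.0047) with doxorubicin and 0.78 (SE 0.19, adjusted p = 0.0078) with nutlin-3. Without nutlin-3 replicate 1 the nutlin-3 change was 0.45, still called (adjusted p = 0.0082). The same array was the highest of its group for FOS (771, 257 and 269) and for EGR1 (10046, 5190 and 5600), immediate-early genes like DUSP1.

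The other probe sets of DUSP1 were dim, and 226578_s_at was called higher with doxorubicin while 201044_x_at was not called with either agent. On 226578_s_at, doxorubicin arrays gave 78.6, 76.4 and 96.1 against 9.30, 7.90 and 69.1 in untreated arrays, a change of 1.42 (SE 0.44, adjusted p = 0.014) that was lost without untreated replicate 1 (adjusted p = 0.063) or untreated replicate 2 (adjusted p = 0.069). On 201044_x_at, doxorubicin arrays gave 58.5, 60.9 and 9.17 against 89.2, 55.6 and 85.4 in untreated arrays, a change of -0.80 that was not called (adjusted p = 0.19). With nutlin-3 the change of 226578_s_at was 0.06 and was not called. On 201044_x_at nutlin-3 arrays gave 877, 185 and 236 against 285, 181 and 347 in DMSO arrays, with replicate 1 again the highest, and the change of 0.36 was not called (adjusted p = 0.69) and was -0.30 without nutlin-3 replicate 1. A suffix of _x_at or _s_at marks probe sets that can match more than 1 transcript.

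DUSP2, a nuclear phosphatase of ERK and p38 known best from activated lymphocytes, rose with doxorubicin. Its signal was 534, 427 and 344 in doxorubicin arrays and 146, 144 and 237 in untreated arrays, with no overlap. Nutlin-3 arrays gave 419, 278 and 185 against 198, 206 and 178 in DMSO arrays, and these groups overlapped. The change was 1.25 (SE 0.25, adjusted p = 0.00055) with doxorubicin and 0.50 (SE 0.25, adjusted p = 0.20, 95% interval -0.03 to 1.02) with nutlin-3. Without nutlin-3 replicate 3, its lowest array, the nutlin-3 change was 0.77 and was called (adjusted p = 0.043), and without nutlin-3 replicate 1, its highest array, it was 0.22 (adjusted p = 0.62).

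DUSP4, a nuclear phosphatase of ERK and JNK, had 3 probe sets that all lay under the filter. On 204015_s_at the signal was 160, 114 and 165 in doxorubicin arrays and 30.2, 7.48 and 9.14 in untreated arrays, and on 204014_at it was 41.9, 75.4 and 67.1 in doxorubicin arrays and 9.56, 1.59 and 2.20 in untreated arrays. All doxorubicin arrays lay above all untreated arrays on both, by 2.42 and 1.92 on the log2(signal + 16) scale, which understates changes of dim probe sets. Nutlin-3 arrays gave 34.4, 43.7 and 8.19 on 204015_s_at against 12.3, 5.02 and 15.1 in DMSO arrays, with overlap. With no filter, limma called the doxorubicin change on both (adjusted p = 0.00016 and 0.00018) and the nutlin-3 change on neither (adjusted p = 0.41 and 0.98). The third probe set, 226034_at, gave at most 25.7 on any array, and its doxorubicin change of 0.59 was not called without the filter (adjusted p = 0.11).

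DUSP7, a cytoplasmic ERK phosphatase, rose with doxorubicin on its bright probe set (213848_at). The signal was 1490, 1705 and 1383 in doxorubicin arrays and 691, 767 and 837 in untreated arrays. It was 1231, 1492 and 1400 in nutlin-3 arrays and 979, 1149 and 1148 in DMSO arrays. Neither pair overlapped, and DMSO arrays were also all above untreated ones. The change was 0.98 (SE 0.11, 1.97-fold, adjusted p = 2.7e-06) with doxorubicin and 0.33 (SE 0.11, adjusted p = 0.059) with nutlin-3. The nutlin-3 change was not called here but passed the threshold in 7 of 26 other settings. Among them were the fits without nutlin-3 replicate 1 (adjusted p = 0.035) or doxorubicin replicate 2 (adjusted p = 0.047). Array weights (adjusted p = 0.014) and 1 probe set per gene (adjusted p = 0.039) were others. The dimmer probe set of DUSP7, 214793_at, changed by 0.25 with doxorubicin and 0.14 with nutlin-3, neither called.

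DUSP6, the cytoplasmic ERK phosphatase that is the usual readout of ERK activity, was not called with either agent. On 208892_s_at it gave 100.04, 48.1 and 63.9 in doxorubicin arrays and 56.5, 127 and 61.9 in untreated arrays, a change of -0.15 (95% interval -0.79 to 0.50). On the same probe set it gave 76.0, 58.3 and 72.9 in nutlin-3 arrays and 89.3, 79.9 and 69.0 in DMSO arrays. All groups overlapped there, close to the filter signal. On 208891_at the nutlin-3 arrays (61.0, 63.6 and 82.4) lay above the DMSO arrays (26.1, 45.5 and 54.0), but the change of 0.58 was not called (adjusted p = 0.21). The doxorubicin change on that probe set was 0.21 (95% interval -0.41 to 0.83). The untested 208893_s_at gave a difference of -0.18 with doxorubicin and 0.36 with nutlin-3.

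DUSP10, a phosphatase of JNK and p38, rose with doxorubicin on both of its probe sets. On 221563_at the signal was 568, 617 and 513 in doxorubicin arrays and 357, 244 and 354 in untreated arrays. On the same probe set it was 373, 415 and 380 in nutlin-3 arrays and 276, 262 and 302 in DMSO arrays. Neither pair overlapped. The change was 0.82 (SE 0.15, adjusted p = 0.00024) with doxorubicin and 0.45 (SE 0.15, adjusted p = 0.043) with nutlin-3. The nutlin-3 call was lost when any 1 of the 6 nutlin-3 and DMSO arrays, or doxorubicin replicate 1, was left out (adjusted p between 0.051 and 0.14, with changes of 0.41 to 0.51), and with the arrays centred on their medians (0.43, adjusted p = 0.052). On 215501_s_at the changes were 1.11 (adjusted p = 0.00016) with doxorubicin and 0.30 (adjusted p = 0.35) with nutlin-3.

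DUSP8, another phosphatase of JNK and p38, had a small rise with doxorubicin. On 206374_at its signal was 340, 435 and 343 in doxorubicin arrays and 282, 240.0 and 276 in untreated arrays. It was 232, 210 and 225 in nutlin-3 arrays and 250.1, 243 and 272 in DMSO arrays. The doxorubicin arrays lay above untreated ones and the nutlin-3 arrays just below DMSO ones. The change was 0.46 (SE 0.14, adjusted p = 0.013) with doxorubicin and -0.19 (adjusted p = 0.43) with nutlin-3. The doxorubicin call was lost without untreated replicate 2 (0.39, adjusted p = 0.057), without doxorubicin replicate 2 (0.34, adjusted p = 0.068) and with the arrays centred on their medians (0.28, adjusted p = 0.13). Its second probe set, 238594_x_at, ranged from 33.3 to 300 over the doxorubicin and untreated arrays and was not called with either agent, except with doxorubicin when untreated replicate 2 was left out (1.45, adjusted p = 0.011).

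DUSP16, which prefers JNK, fell with nutlin-3 and was the lone member to fall with either agent. On 224832_at its signal was 506, 541 and 435 in nutlin-3 arrays and 654, 896 and 1082 in DMSO arrays, with no overlap. In doxorubicin arrays it was 606, 541 and 738, against 812, 783 and 651 in untreated arrays, which overlapped. The change was -0.78 (SE 0.17, adjusted p = 0.0029) with nutlin-3 and -0.25 (adjusted p = 0.23) with doxorubicin. On 224336_s_at the nutlin-3 arrays (182, 210 and 193) were again all below the DMSO arrays (211, 247 and 242), but the change of -0.24 was not called (adjusted p = 0.37). The probe set 1563505_at was not called with nutlin-3 (-0.30) or doxorubicin (0.52), and the untested 1555399_a_at gave -0.62 and 0.04.

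DUSP14, the small atypical enzyme reported to act on ERK and JNK in overexpression assays and on TAB1 in T cells, rose with both agents. Its signal was 4109, 4235 and 4599 in doxorubicin arrays and 1928, 1522 and 1735 in untreated arrays. It was 4606, 4931 and 4954 in nutlin-3 arrays and 2004, 2428 and 2293 in DMSO arrays. Treated and control arrays were far apart in both pairs, and all 4 groups stood apart from their neighbours in the order untreated, DMSO, doxorubicin and nutlin-3. The change was 1.32 (SE 0.10, 2.49-fold, adjusted p = 1.8e-08) with doxorubicin and 1.11 (SE 0.10, 2.15-fold, adjusted p = 5.8e-07) with nutlin-3.

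**Figure D2:**
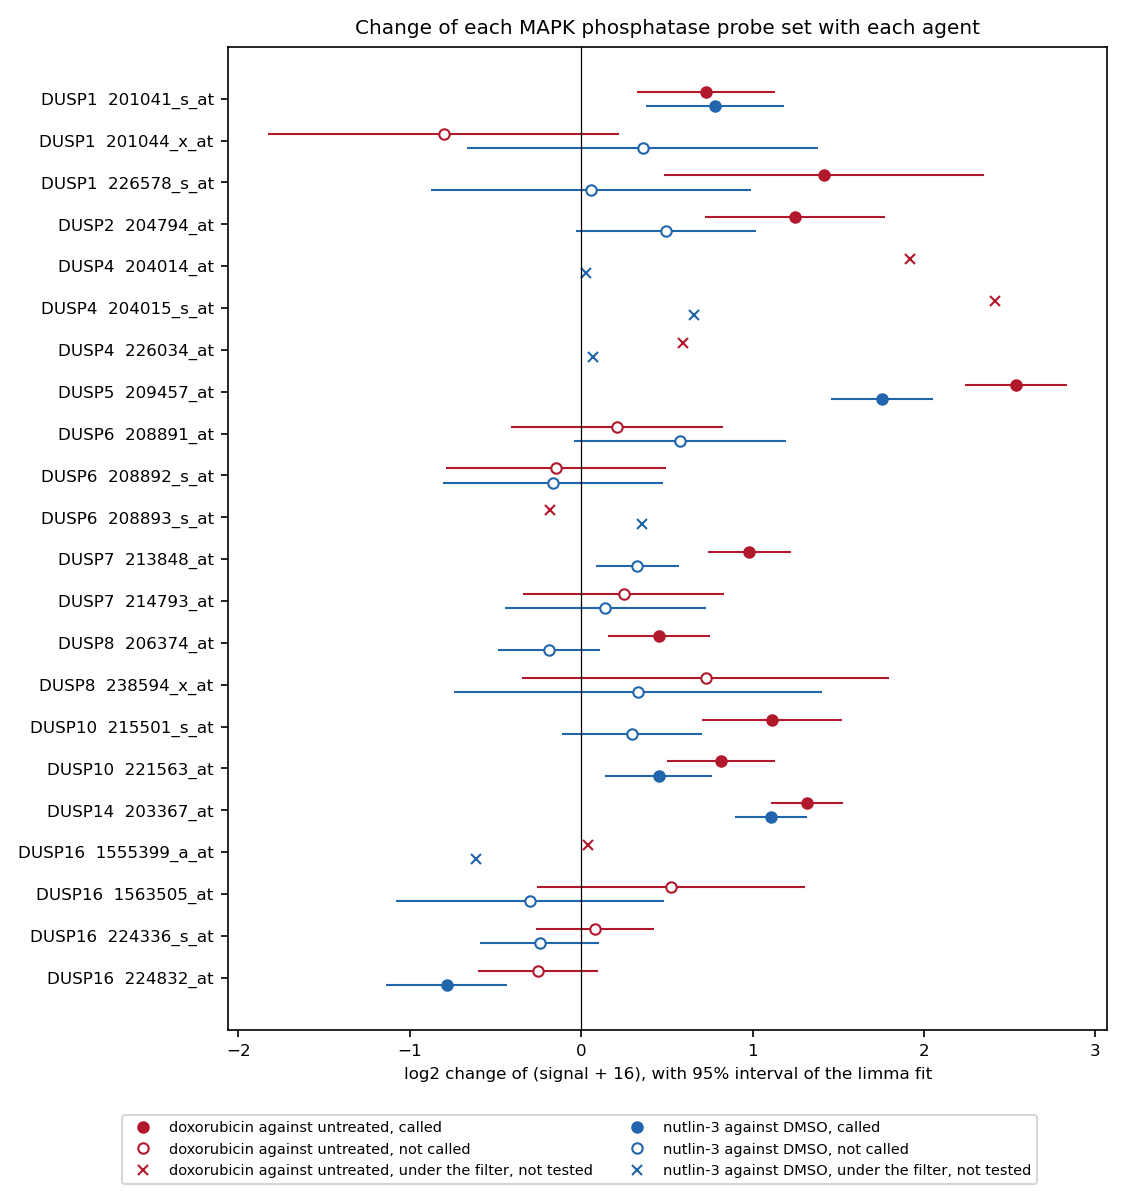
log2 change of (signal + 16) for every probe set of the family with doxorubicin against untreated and with nutlin-3 against DMSO; bars are 95% intervals, and crosses are probe sets under the filter, which have no interval. The changes of DUSP5 and DUSP14 lie above 0 with both agents, those of DUSP2 and of the bright DUSP7 probe set (213848_at) are called with doxorubicin, and DUSP16 lies below 0 with nutlin-3.

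The ACTB ratio was higher in doxorubicin than in untreated arrays, and its part in the doxorubicin calls was not tested. A setting chosen after seeing the data kept the doxorubicin array of lowest ACTB ratio (2.48) as the lone doxorubicin array. DUSP1 then changed by 0.72, beside 0.73 with all doxorubicin arrays, and by 1.35 beside 1.42 on 226578_s_at. DUSP8 changed by 0.34 beside 0.46. A lone array widens the standard error whatever its ratio, so calls in this setting cannot speak to the ratio.

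The response to doxorubicin was larger than that to nutlin-3 on 4 of the 17 tested probe sets and smaller on 0, by a test of the difference of the responses, against 30.4% of all tested probe sets called, 15.5% larger and 14.9% smaller. For DUSP5 the responses of 2.54 and 1.76 differed by 0.78 (SE 0.20, 95% interval 0.36 to 1.20, adjusted p = 0.0070). For DUSP7 those of 0.98 and 0.33 differed by 0.65 (SE 0.16, adjusted p = 0.0058), which was lost with the arrays centred on their medians (0.50, adjusted p = 0.065). For DUSP8, where the changes were 0.46 and -0.19, the difference was 0.64 (SE 0.20, adjusted p = 0.021), and for the second probe set of DUSP10, with 1.11 and 0.30, it was 0.82 (SE 0.27, adjusted p = 0.032). The DUSP8 difference was lost without untreated replicate 2, doxorubicin replicate 2, DMSO replicate 3 or nutlin-3 replicate 2 (adjusted p between 0.052 and 0.054). The DUSP10 difference was lost without untreated replicate 2, doxorubicin replicate 2 or 3, any DMSO replicate or nutlin-3 replicate 3 (adjusted p between 0.051 and 0.092). Both were also lost with the arrays centred on their medians (0.49, adjusted p = 0.085, for DUSP8 and 0.66, adjusted p = 0.061, for DUSP10). No difference was called on the other probe sets of DUSP7, DUSP8 and DUSP10. The brighter 221563_at of DUSP10 gave 0.36 (adjusted p = 0.21). DUSP7 gave 0.11 on 214793_at (adjusted p = 0.87), and DUSP8 gave 0.39 on 238594_x_at (adjusted p = 0.72).

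For other members no difference in response was called. DUSP14 gave 0.21 (95% interval -0.09 to 0.51, adjusted p = 0.28) and DUSP1 gave -0.06 (-0.63 to 0.51, adjusted p = 0.90 on 201041_s_at). DUSP2 gave 0.75 (SE 0.35, adjusted p = 0.12), which was called without untreated replicate 3 (0.97, adjusted p = 0.048) or nutlin-3 replicate 1 (1.03, adjusted p = 0.024). DUSP16 gave 0.53 (adjusted p = 0.099) on 224832_at, called without DMSO replicate 1 (0.73, adjusted p = 0.018). On 226578_s_at DUSP1 gave 1.36 (adjusted p = 0.11), called without untreated replicate 3 (1.96, adjusted p = 0.0090), and on 201044_x_at it gave -1.16 (adjusted p = 0.22), or -0.50 without nutlin-3 replicate 1 and -0.63 without doxorubicin replicate 3. DUSP4 differed by 1.76 on 204015_s_at and 1.89 on 204014_at, and both passed the threshold when no filter was used (adjusted p = 0.037 and 0.0070). The agents differ in their control (untreated or DMSO) as well as in action, and the difference uses both control groups.

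**Figure D3:**
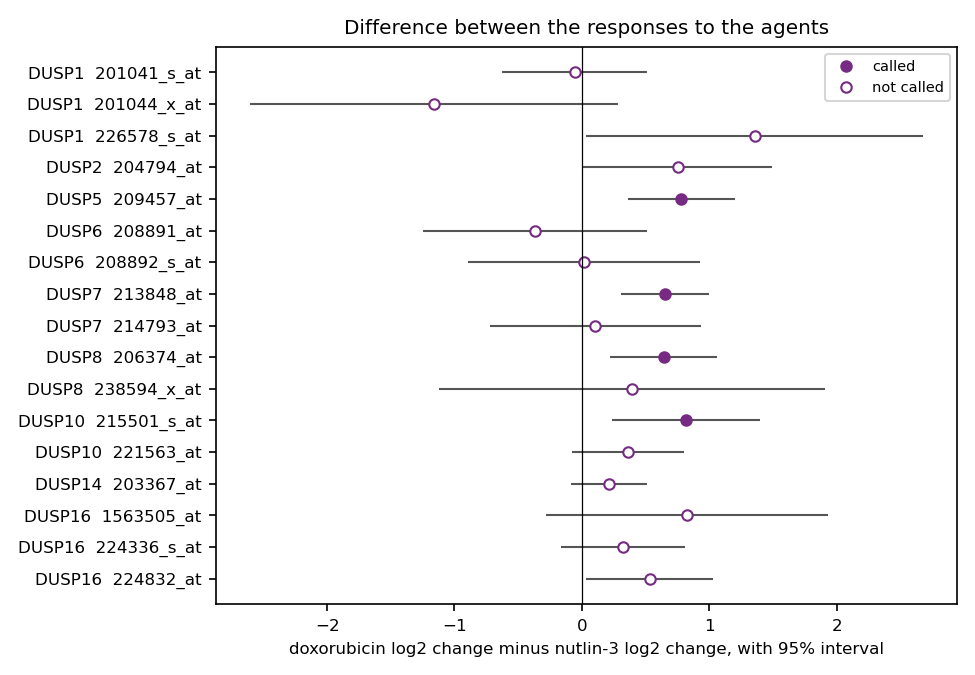
Difference of the doxorubicin and nutlin-3 responses (log2) for each tested probe set of the family, with 95% intervals. Probe sets under the filter are not shown. DUSP5, the brighter probe sets of DUSP7 and DUSP8, and the second probe set of DUSP10 are called and lie above 0, while DUSP14 and the bright probe set of DUSP1 lie close to 0.

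The controls themselves differed for some members. Between DMSO and untreated cells, 4 of the 17 tested probe sets were higher and 0 lower, against 13.6% of all tested probe sets called, 5.65% higher and 7.94% lower. DUSP1 was higher in DMSO cells by 0.89 (SE 0.19, adjusted p = 0.0055) on 201041_s_at and by 1.61 (adjusted p = 0.037) on 201044_x_at, where DMSO arrays gave 285, 181 and 347 and untreated arrays 89.2, 55.6 and 85.4. DUSP14 was higher by 0.37 (adjusted p = 0.020). DUSP7 was higher by 0.51 on 213848_at (adjusted p = 0.0082), while 214793_at gave -0.68 (95% interval -1.27 to -0.10, adjusted p = 0.12), in the other direction and not called. The DUSP14 call was lost without untreated replicate 2 (0.29, adjusted p = 0.091), DMSO replicate 2 (0.31, adjusted p = 0.097) or DMSO replicate 3 (0.36, adjusted p = 0.076), and that of 201044_x_at was lost without any 1 untreated replicate, DMSO replicate 1 or DMSO replicate 3 (adjusted p between 0.068 and 0.14). On 226578_s_at DUSP1 gave 1.37 (adjusted p = 0.051), called without untreated replicate 3 (adjusted p = 0.0044) or nutlin-3 replicate 1 (adjusted p = 0.039). DUSP5 was not called (-0.04, 95% interval -0.34 to 0.25). With no intensity trend in the variance, neither DUSP14 (adjusted p = 0.063) nor 201044_x_at (adjusted p = 0.095) was called. The ACTB ratio averaged 1.28 ± 0.0281 in DMSO arrays and 1.53 ± 0.0754 in untreated arrays (SD, n = 3 each), and its part in these differences was not tested. This comparison shares its untreated arrays with the doxorubicin comparison and its DMSO arrays with the nutlin-3 one.

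Over the 12 arrays, the gene whose log2 signal was most like that of DUSP5 was GDF15, a secreted stress protein and known p53 target (Pearson r = 0.996), followed by SUSD6 (0.994) and CLP1 (0.990), among 13698 genes. For DUSP14 they were OPTN (0.983), BLOC1S2 (0.982) and SUGCT (0.982). These values describe arrays that fall into 4 treatment groups and share a scaling.

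Genes that ERK signalling switches on or that feed back on it, a list of 18, had calls in 1 direction with each agent. Of the 17 tested by their brightest probe set, 10 rose and 0 fell with doxorubicin (54.2% of all 13707 genes called, 29.3% higher and 24.9% lower), with a median change of 0.60 beside 0.08 over all genes; 7 were not called, and with the arrays centred on their medians, or without untreated replicate 1, 9 rose and 1 fell. With nutlin-3, 15 rose and 0 fell (23.6% of all genes called, 11.1% higher and 12.5% lower), with a median of 0.71 beside 0.00485 over all genes. Between DMSO and untreated cells 0 of the 17 were higher, 3 were lower and 14 were not called. Over all tested probe sets 13.6% were called, 5.65% higher and 7.94% lower. That share is by probe set, and the share by gene was not taken for this comparison. With each agent the share by gene was the larger (54.2% beside 47.4% with doxorubicin, 23.6% beside 17.9% with nutlin-3). The median change of the list was -0.24, beside 0.02 over all genes. The 3 lower genes were PHLDA1, EPHA4 and SPRED2, and their nutlin-3 means stayed below the untreated ones. PHLDA1, a pleckstrin-like protein, averaged 756 in nutlin-3 cells, 476 in DMSO cells and 1846 in untreated cells. EGR1, a zinc-finger factor of the immediate-early response, averaged 8198 ± 586 in doxorubicin cells and 1528 ± 208 in untreated cells, and 6945 ± 2693 in nutlin-3 cells and 2133 ± 882 in DMSO cells (SD, n = 3 each). FOS, the AP-1 subunit, rose by 2.32 with doxorubicin and 1.23 with nutlin-3, the nutlin-3 change being 0.73 (adjusted p = 0.017) without nutlin-3 replicate 1. EPHA2, an ephrin receptor, rose by 2.10 with doxorubicin, and SPRY2, a feedback inhibitor of receptor tyrosine kinase signalling, rose by 1.07 with nutlin-3.

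The kinase cascades themselves had calls in both directions. Over all genes, 54.2% were called with doxorubicin (29.3% higher and 24.9% lower) and 23.6% with nutlin-3 (11.1% higher and 12.5% lower). Of 10 tested genes of the ERK cascade, doxorubicin raised 3 (HRAS by 1.17, the scaffold KSR1 by 1.01 and the exchange factor SOS2 by 0.97) and lowered 2 (MAP2K2, a kinase that activates ERK, at -0.62 and ARAF at -0.32). Nutlin-3 raised 2 of the 10, the adaptor SHC1 (0.77) and HRAS (0.62), and lowered 0. Of 14 tested genes of the JNK, p38 and ERK5 cascades, doxorubicin raised 5, among them the p38 genes MAPK13 (1.14) and MAPK11 (1.00) and the JNK gene MAPK9 (0.80), and lowered 4, among them the stress kinase MAP3K20 (-1.68), the p38 activator MAP2K6 (-0.99) and the ERK5 activator MAP2K5 (-0.95). Nutlin-3 raised 2 of these 14, MAPK11 (0.64) and MAP2K4 (0.40), and lowered 3, MAPK9 (-0.51), MAP3K1 (-0.40) and MAP3K20 (-0.34). MAPK9 thus rose with doxorubicin and fell with nutlin-3. The ARAF call was lost without untreated replicate 1 or 2 or doxorubicin replicate 1 or 3, and that of MAP2K4 without DMSO replicate 1 or 3 or nutlin-3 replicate 3 (adjusted p between 0.070 and 0.10). With the arrays centred on their medians, doxorubicin raised 3 and lowered 5 of the JNK, p38 and ERK5 list.

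Among 10 tested DUSP genes outside the family described, doxorubicin raised 5 and lowered 1, and nutlin-3 raised 2 and lowered 0. For these and the phosphatases below, the shares over all genes were 54.2% called with doxorubicin (29.3% higher) and 23.6% with nutlin-3 (11.1% higher). DUSP11, an RNA phosphatase and known p53 target rather than a kinase phosphatase, averaged 5011 ± 268 in doxorubicin cells and 1635 ± 196 in untreated cells, and 4639 ± 153 in nutlin-3 cells and 1949 ± 12.7 in DMSO cells (SD, n = 3 each). Its changes were 1.61 (adjusted p = 5.5e-10) and 1.24 (adjusted p = 6.4e-08). DUSP15 (1.34) and DUSP13B (1.13) rose and DUSP12 fell (-0.28) with doxorubicin, and DUSP3, which acts on ERK and JNK, rose with nutlin-3 (0.38). Of 6 tested phosphatases of other families that act on these kinases, doxorubicin raised 4 and nutlin-3 raised 2. PPM1D, a p53-induced phosphatase of p38, rose by 1.40 with doxorubicin and 0.92 with nutlin-3, and PTPN7, a tyrosine phosphatase of ERK and p38, rose by 1.41 with doxorubicin. PPM1A, which acts on p38 and JNK pathway kinases, rose by 0.44 with doxorubicin (0.28 without doxorubicin replicate 1) and 0.37 with nutlin-3.

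Several of these calls were lost when 1 array was left out. The nutlin-3 call of PPM1A was lost without any 1 nutlin-3 or DMSO array or untreated replicate 2 (adjusted p up to 0.13), and that of DUSP3 without any DMSO array or nutlin-3 replicate 2 or 3 (adjusted p up to 0.17). With doxorubicin, DUSP12 was lost without untreated replicate 2 or 3 or doxorubicin replicate 1 or 2 (adjusted p up to 0.13), DUSP13B without untreated replicate 2 (0.75, adjusted p = 0.078) and PTPN7 without untreated replicate 3 (0.88, adjusted p = 0.053). With the arrays centred on their medians, doxorubicin raised 3 and lowered 2 of the other DUSP genes and raised 2 of the other phosphatases.

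**Figure D4:**
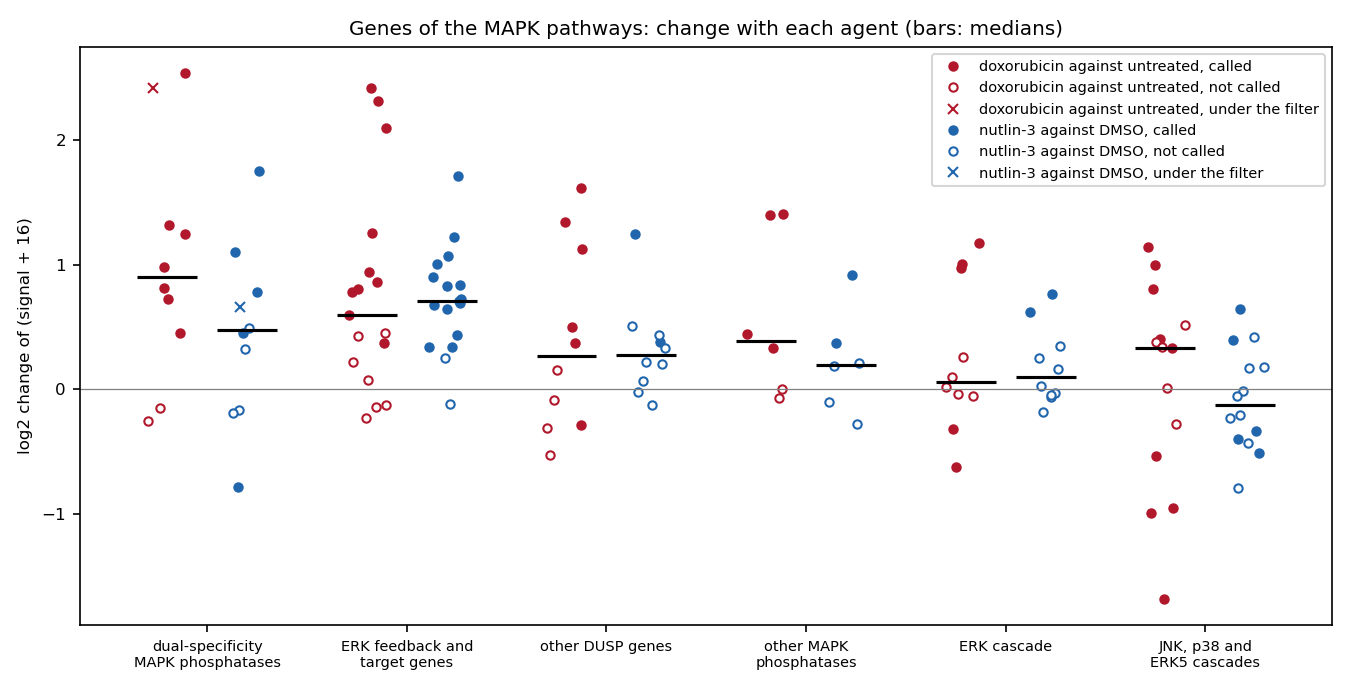
log2 change of each gene by its brightest probe set, with doxorubicin against untreated and nutlin-3 against DMSO. All 10 dual-specificity MAPK phosphatases are shown, and of the other lists the tested genes alone. Filled points were called, open points were not, and crosses mark DUSP4, which was under the filter. Black bars are medians (for the phosphatases over all 10 genes, 0.90 with doxorubicin and 0.47 with nutlin-3). The ERK feedback and target genes have medians of 0.60 and 0.71, and the kinase cascades scatter on both sides of 0.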

How the data were processed

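Per the submitters' processing notes the values came from MAS5 (version not given in the sources used here). The deposited table holds each array's linear signal intensity, which the authors had scaled so that the trimmed mean (2% off each end) was 500.1 on every array. Probe sets were named from the platform annotation: 41097 had 1 gene symbol, 1801 several and 11777 were not listed. After 62 control probe sets were removed, log2(signal + 16) of those with a mean over the 12 arrays at or above the 40th percentile was fitted with limma 3.58.1 (R 4.3.3; 4 group means, lmFit, eBayes with an intensity trend), with Benjamini-Hochberg adjustment over all 32768. The fit was tested on simulated data, with 50 probe sets given each size of change. It called 98% of them at a log2 change of 2, 62% at 1, 14% at 0.5 and 18% at -0.5. Small true changes were thus mostly missed there. The other 32568 probe sets were unchanged, unlike in these data, so those shares need not hold here. The number of arrays limits the precision.

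Every member and probe set was reported. From the pathway lists, up to 3 called genes with the largest rise and fall with each agent were named, and pattern likeness was sought for DUSP5 and DUSP14. EGR1 and FOS values by array, and the names PHLDA1, EPHA4 and SPRED2, were given after values were seen. The members and lists were chosen with earlier results of these data known. Alternatives were the scaling, pseudocount, filter, probe set choice, variance trend, array weights, arrays in the fit, replicate block, each array left out and stricter thresholds. Marker lists were osteoblast, leukocyte, epithelial and endothelial. Of the endothelial markers 1 of 4 passed the filter, and their summed signal was 275 to 330.1 in doxorubicin arrays, 238 to 284 in untreated arrays, 163 to 210.0 in nutlin-3 arrays and 132 to 180.2 in DMSO arrays.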

Additional observations from a re-analysis of the deposited data

Results flagged for a closer look

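The following 4 probe sets drew attention because the responses to the agents differed in the test of the difference itself: DUSP5 by 0.78 (SE 0.20, adjusted p = 0.0070), DUSP7 (213848_at) by 0.65 (SE 0.16, adjusted p = 0.0058), DUSP8 (206374_at) by 0.64 (SE 0.20, adjusted p = 0.021) and DUSP10 (215501_s_at) by 0.82 (SE 0.27, adjusted p = 0.032), each larger with doxorubicin than with nutlin-3. All adjusted p-values are from limma. These were 4 of the 17 tested probe sets, beside 30.4% called over all tested probe sets. The DUSP7, DUSP8 and DUSP10 calls were lost with the arrays centred on their medians.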

How the results depend on the processing

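Over 88 values of the family (22 probe sets in 4 comparisons) and 26 other settings, 1715 values were recomputed; 1623 kept their side of the threshold, 68 lost a call and 24 gained 1. Of the 1715, 42 values of 14 results had the other sign, 0 of them of a called result. The count of called probe sets of the family with doxorubicin, 9, was 8 to 9 with any array left out and 5 when a change of at least 2-fold was asked for. The nutlin-3 count, 5, was 4 to 6 with an array left out and 2 at 2-fold. For the difference of the responses, 4, it was 2 to 6 with an array left out (2 without untreated replicate 2, doxorubicin replicate 2 or DMSO replicate 3, and 6 without untreated replicate 3), 1 with median centring, 2 at an adjusted p under 0.01 and 0 at 2-fold. For DMSO against untreated, 4, it was 2 to 5 with an array left out (2 without untreated replicate 2 or DMSO replicate 3), 2 with no intensity trend, 2 at an adjusted p under 0.01 and 1 at 2-fold. Over all probe sets, the 15541 calls with doxorubicin were 13957 to 15635 with an array left out, 7668 with 1 probe set per gene and 4987 at 2-fold. The 5879 with nutlin-3 were 4417 to 6220, with 3628 by gene, 3596 at 0.01 and 1199 at 2-fold. The 9967 for the difference were 8518 to 9753, with 5436 by gene, 6296 at 0.01 and 4026 at 2-fold. The 4453 for DMSO were 2471 (without DMSO replicate 3) to 4967, with 2718 without untreated replicate 1, 2708 without DMSO replicate 2, 1959 by gene, 1869 at 0.01 and 719 at 2-fold. Fewer features or stricter thresholds account by construction for the last of these; the cause of the others was not tested. Median centring moved the median change of all tested probe sets with doxorubicin to -0.14 and the split to 5236 higher and 10111 lower, beside 7779 and 7762. It moved the split of the difference to 3237 and 6041, beside 5081 and 4886, and that of DMSO to 2910 and 1623, beside 1850 and 2603 (2068 and 2210 with quantile normalization). Same-numbered arrays did not deviate together in every pair (correlations of -0.07 to -0.03 for doxorubicin and untreated, 0.01 to 0.20 for nutlin-3 and DMSO), so the numbers were not taken as pairs. With the replicate block the family counts for doxorubicin, nutlin-3, the difference and DMSO were 9, 6, 4 and 5, and those over all probe sets 16087, 6532, 10722 and 5222; DUSP7 was then called with nutlin-3 (adjusted p = 0.027) and 226578_s_at of DUSP1 with DMSO (adjusted p = 0.031). Signals near the filter limit what can be said of DUSP4, DUSP6, DUSP13B and the dim probe sets of DUSP1.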
